A study of Mus musculus with 9 samples.

Results

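The genes described here are the sensors, the adaptor, the inflammatory caspases and the pore-forming substrate of the mouse inflammasome pathway: Nlrp3, Nlrc4, Nlrp1b, Naip2, Naip5, Pycard, Casp1, Casp4 and Gsdmd. They were chosen by gene symbol, with earlier results of these data known, and all 9 were found among the 22376 gene symbols of the deposited tables. Gsdmd is the gasdermin among them; the other gasdermins are given further on as part of the surrounding pathway. RNA sequencing was done on macrophages grown from the bone marrow of healthy wild-type C57Bl/6 mice by culture for 1 week in 10 ng/ml recombinant M-CSF, the growth factor that turns marrow precursors into macrophages. The cells were washed free of M-CSF, plated at 50000 per well and kept for 48 h with an antibody or untreated. Of the libraries, 3 came from wells with a PD-L1 antibody at 100 µg/ml (libraries 1 to 3). Another 3 came from wells with an isotype-matched antibody of irrelevant specificity at 100 µg/ml (libraries 4 to 6), and 3 from untreated wells (libraries 7 to 9). PD-L1, encoded by Cd274, binds PD-1, a receptor that restrains T cells, and is itself displayed on macrophages. No source used here says whether the 3 libraries of a group came from separate mice or cultures, so p-values measure the spread between these libraries, which may be technical. All groups had lost their M-CSF in the same way, so no value below describes macrophages kept in M-CSF.

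An inflammasome is a cytosolic complex that a sensor protein builds after meeting a sign of infection or damage. NLRP3 answers potassium loss and many membrane disturbances. NLRP1B of some mouse strains is opened by proteases such as anthrax lethal factor. NLRC4 is engaged through NAIP proteins, of which NAIP5 binds bacterial flagellin and NAIP2 the inner rod protein of bacterial secretion systems. The adaptor ASC, encoded by Pycard, links sensors to caspase-1, the product of Casp1, while caspase-11, the product of mouse Casp4, binds lipopolysaccharide in the cytosol directly. Both caspases cut gasdermin D, whose amino-terminal part forms pores in the plasma membrane, and caspase-1 also matures interleukin-1β and interleukin-18. In macrophages, activity of the pathway is known to be set in steps: transcription of its parts, called priming, is separate from assembly of the complex and from cleavage. The libraries measure RNA only and hold nothing on assembly, cleavage or cell death.

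The genes sit on 6 chromosomes, and some are close neighbours. In GRCm38 coordinates, Casp1 (chr9:5298517-5307281, plus strand) ends 1567 bases before the start of Casp4 (chr9:5308849-5336791, plus strand). Naip2 (chr13:100144063-100202122) and Naip5 (chr13:100211740-100247336), both on the minus strand, are separated by 9617 bases. Nlrp3 (chr11:59542686-59566956, plus strand) and Nlrp1b (chr11:71153102-71230733, minus strand) share a chromosome but lie 11586145 bases apart. Nlrc4 is at chr17:74426295-74459108 on the minus strand, Pycard at chr7:127991373-127993867 on the minus strand and Gsdmd at chr15:75862339-75867404 on the plus strand. These spans cover each transcript from its first to its last exon, introns included.

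Naip2 and Naip5 are copies of an ancestral gene. A stretch of DNA upstream of their starts is shown because it is nearly the same letters while their RNA levels, given below, moved differently. RefSeq promoter sequence of GRCm38.p6, 250 bases upstream of each start, was compared between the pair. In the best-matching stretch without gaps, 77 of 83 aligned bases were identical (92.8%). The stretch was thus chosen for its likeness, and the figure does not describe the rest of the 250 bases. Both stretches read 5′ to 3′ on the minus strand, and capitals mark the 6 bases that differ. The Naip2 stretch is chr13:100202125-100202207, from 85 to 3 bases upstream of the start, and the Naip5 stretch is chr13:100247346-100247428, from 92 to 10 bases upstream.
Naip2: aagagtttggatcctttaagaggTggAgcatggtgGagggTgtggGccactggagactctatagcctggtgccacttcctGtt
Naip5: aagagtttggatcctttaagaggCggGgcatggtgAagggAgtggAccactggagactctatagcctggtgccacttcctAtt

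A second sequence is shown because it was the only promoter window searched for these genes with a match to the κB letters given below. NF-κB, the main transcription factor of priming, is known to bind such letters, but other forms of them were not searched. The RefSeq table held a window for 8 of the 9 genes. For each, the 250 bases upstream of the start of the transcript used were searched on both strands for 5 motifs. For Nlrp3, Nlrp1b and Casp4 it held 2 windows, and only that at the start of the transcript used counts among the 8. The κB letters (GGG, any 2 bases, TTTCC) occurred in 1.41% of the 32851 windows in the table, TTCNNNGAA (the GAS letters of interferon-gamma response) in 7.02%, the core of the interferon-stimulated response element (TTTC, any 2 bases, TTTC) in 2.98%, TGANTCA (AP-1) in 6.75% and AGAGGAAGT (PU.1, the macrophage ETS factor) in 0.798%. Among the 8 windows, Casp4 held the κB letters on the plus strand from 93 to 84 bases upstream and on the minus strand from 14 to 5 bases upstream, and Nlrp1b held the PU.1 letters from 97 to 89 bases upstream. No overlap between motifs occurred in these windows, and the others among the 8 held none of the 5. A match describes letters only and is not evidence of binding. The Casp4 sequence below is chr9:5308599-5308827 on the plus strand; the 21 bases nearest the start, which hold the second match, are left out because the annotation counts them as untranslated region, and capitals mark the κB letters.
Casp4: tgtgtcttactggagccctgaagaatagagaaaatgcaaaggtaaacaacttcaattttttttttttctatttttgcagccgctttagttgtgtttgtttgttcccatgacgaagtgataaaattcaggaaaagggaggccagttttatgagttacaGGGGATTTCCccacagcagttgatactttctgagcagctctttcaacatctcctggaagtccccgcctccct

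Depth was between 23554320 exonic read equivalents in untreated library 7 and 40116467 in untreated library 9. An exonic read equivalent is the deposited average coverage of a transcript times its exon length over 150, the bases in a read. Levels are given per 1000000 exonic read equivalents, with the library total scaled by its TMM factor (CPM), and log2 fold changes are differences of group means of log2(CPM + 1), which understate the change of genes with few reads. The PD-L1 antibody target gene Cd274 itself had 668.3, 752.5 and 566.8 CPM in the PD-L1 antibody wells, 266, 178.1 and 235.4 CPM in the isotype antibody wells and 215.3, 201.6 and 246.4 CPM in the untreated wells. All 12 macrophage markers were detected, and their summed level was 25000 to 28880 CPM in the PD-L1 antibody wells, 22420 to 26660 CPM in the isotype antibody wells and 20940 to 31700 CPM in the untreated wells. Lyz2, the lysozyme gene, made up much of that sum, with means of 11400, 13000 and 12840 CPM in the PD-L1 antibody, isotype antibody and untreated wells. Of the 12, Adgre1 (2.43-fold), Fcgr1 (2.68-fold), Cd14 (3.31-fold) and Itgam (2.23-fold) were higher with the PD-L1 antibody than with the isotype antibody. Cd68 was lower (0.67 times), each of these at a limma adjusted p under 0.05. Against untreated cells 4 were higher and 5 lower, C1qb among the lower at 886.1 against 2739 CPM. The untreated C1qb libraries were spread (1321, 3477 and 3418 CPM), and against the isotype antibody C1qb was not called (limma adjusted p = 0.159). PD-L1 antibody library 2 was sequenced in lane 4 and all other libraries in lane 1, by the deposited names.

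Markers of other cells were low but did not all stay level between groups. The 12 neutrophil and granulocyte precursor markers summed to 562.9 to 726.2 CPM in the PD-L1 antibody wells, 735 to 1370 CPM in the isotype antibody wells and 558.9 to 761.7 CPM in the untreated wells, and none was at 0 in every library. Lcn2, the 1 of them that rose, held up that sum in the PD-L1 antibody wells (226.2 CPM, against 64.6 CPM in the isotype antibody wells). Of the 11 tested, 5 were lower than with the isotype antibody and 7 lower than untreated, with median log2 fold changes of -0.65 and -0.94; Ltf and Ngp, genes of granule proteins, were 0.232 and 0.293 times the isotype mean. The 10 dendritic cell markers summed to 429.2 to 489.7 CPM for the PD-L1 antibody, 363.6 to 576.1 CPM for the isotype antibody and 310.3 to 562.7 CPM for untreated cells, of which Ccr7 gave 405.8, 387.8 and 331.7 CPM on average. Of these 10, 5 were lower and 1 higher with the PD-L1 antibody than with the isotype antibody (median -0.65). Compared with untreated cells, 6 were lower and 2 higher (median -0.56). Clec9a, Cd209a and Siglech were 0.0737, 0.0299 and 0.237 times isotype means of only 1.252, 1.763 and 7.615 CPM. Xcr1 was the 1 that was higher than with the isotype antibody, at 3.156 against 0.6986 CPM. The 8 stroma markers summed to 66.15 to 84.89 CPM for the PD-L1 antibody, 38.07 to 54.97 CPM for the isotype antibody and 60.57 to 92.15 CPM for untreated cells. Of these 8, 4 were higher with the PD-L1 antibody than with the isotype antibody, and 0 higher and 1 lower than untreated. The 7 erythroid markers summed to 2.063 to 3.796 CPM in the PD-L1 antibody wells, 6.495 to 14.01 CPM in the isotype antibody wells and 11.63 to 14.65 CPM in the untreated wells. Mast cell and basophil markers (7 genes) reached at most 66 CPM, B cell markers (7 genes) at most 10.39 CPM, and T and NK cell markers (6 of 8 with any value) at most 5.19 CPM, each with ranges that overlapped between the PD-L1 antibody and the isotype antibody. The part of other cell types in the results below was not tested. In bulk RNA, fewer cells of a type and less RNA per cell cannot be told apart.

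With the PD-L1 antibody, RNA of 6 of the 9 genes was higher than with the isotype antibody, 1 was lower, and 2 did not pass the test. Nlrp3 showed the largest rise at 2.33-fold, followed by Naip2; Gsdmd, Casp4, Casp1 and Nlrc4 rose by smaller amounts, Nlrp1b fell, and Naip5 and Pycard were not called. The same 6 and the same 1 were called against untreated cells, a comparison that uses the same 3 PD-L1 antibody libraries and is therefore not independent of the first. Between isotype antibody and untreated cells none of the 9 was called. Calls are limma adjusted p under 0.05, with adjustment over all 13728 genes tested, and all 9 genes passed the filter on low values. These counts have to be read against a broad change: 36.4% of all genes tested were called between the PD-L1 antibody and the isotype antibody, 18.2% higher and 18.2% lower. That is 2502 genes higher and 2500 lower, and scaling by total counts alone, which shifted the median gene to -0.16, made it 1565 and 4148. The median log2 fold change was 0.56 over the 9 genes and -0.01 over all genes tested.

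**Figure D1:**
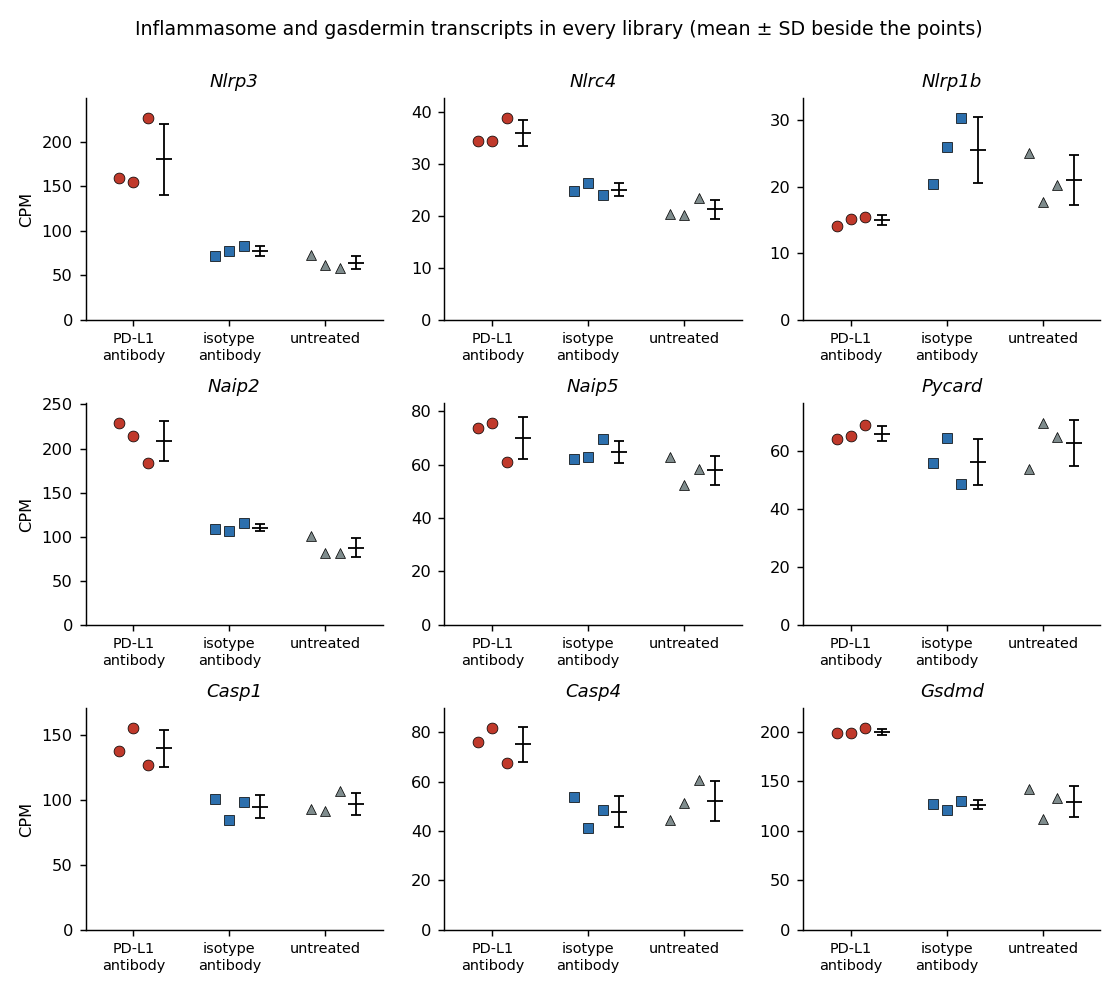
Level of each of the 9 genes in every library, in CPM from 0 upwards, 1 panel per gene, with the PD-L1 antibody at the left, the isotype antibody in the middle and untreated cells at the right; each point is a library, and the mark beside it gives the group mean with its SD. In Nlrp3, Nlrc4, Naip2, Casp1, Casp4 and Gsdmd every PD-L1 antibody library lies above the other 6 libraries, and in Nlrp1b every one lies below them.

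Per length of transcript, the downstream parts of the pathway were more abundant than most sensors in every group. With the PD-L1 antibody Gsdmd stood first at 112.6 ± 1.66 CPM per kilobase of exon (SD, n = 3 here and below), Casp1 second at 92.33 ± 9.51 and Casp4 next at 52.09 ± 4.93. Nlrp3 followed at 44.89 ± 9.90, Naip2 at 43.01 ± 4.75, Pycard at 31.0 ± 1.22, Naip5 at 13.23 ± 1.48, Nlrc4 at 9.35 ± 0.652 and Nlrp1b at 3.60 ± 0.173 CPM per kilobase. Only 2 neighbouring pairs in that order had overlapping libraries, Casp4 with Nlrp3 and Nlrp3 with Naip2. With the isotype antibody the order was Gsdmd (71.13 ± 2.55), Casp1 (62.58 ± 5.82), Casp4 (33.15 ± 4.36), Pycard (26.4 ± 3.69), Naip2 (22.7 ± 0.881), Nlrp3 (19.26 ± 1.38), Naip5 (12.25 ± 0.780), Nlrc4 (6.53 ± 0.315) and Nlrp1b (6.15 ± 1.19). There Casp4 overlapped Pycard, Pycard overlapped Naip2, and Nlrc4 overlapped Nlrp1b. Untreated cells had the same order as the isotype antibody, with Gsdmd at 72.75 ± 8.75 and Nlrp1b at 5.06 ± 0.906 CPM per kilobase, and with overlaps between Gsdmd and Casp1, Casp4 and Pycard, Naip2 and Nlrp3, and Nlrc4 and Nlrp1b.

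So Pycard stood above Naip2 and Nlrp3 in mean level per length with the isotype antibody and in untreated cells, and below both with the PD-L1 antibody. In that group the lowest Naip2 library had 37.81 and the highest Pycard library 32.38 CPM per kilobase. The Pycard level is uncertain: its annotated exons share 485 of 3800 bases with an antisense gene, Gm45205, and no source used here says whether reads were counted by strand. Between 42.48% and 68.48% of its 2135 exon bases reached 20-fold coverage, against 99.49% to 100.0% of those of Gsdmd. For Casp1 that share was 81.23% to 81.76% in all libraries, so its level per length averages covered and little covered bases alike.

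**Figure D2:**
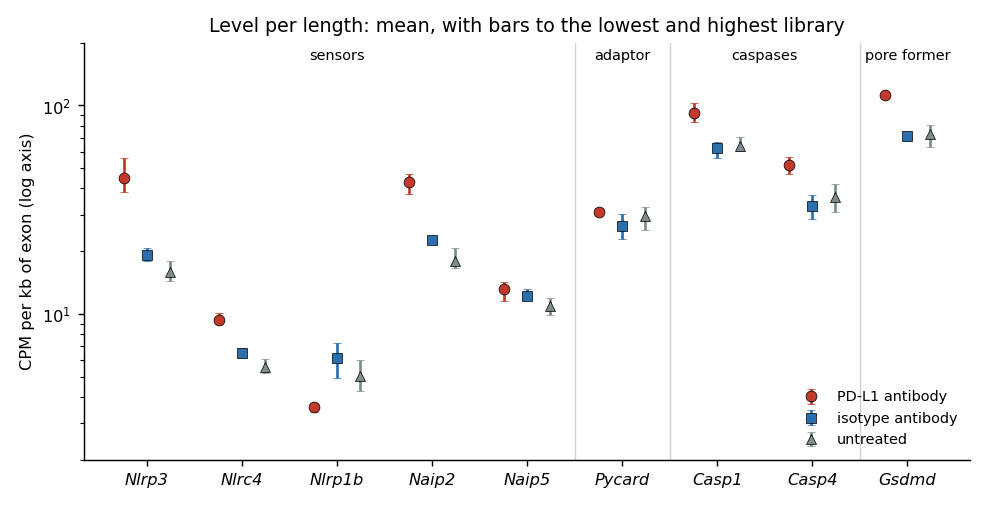
Level of the 9 genes per kilobase of exon on a log axis, in CPM per kilobase, by group, PD-L1 antibody left of isotype antibody and untreated cells; points are means of 3 libraries and bars reach to the lowest and highest library. Gsdmd is highest on average in all 3 groups (112.6, 71.13 and 72.75 CPM per kilobase) and Nlrp1b lowest (3.60, 6.15 and 5.06).

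Nlrp3, the sensor of potassium loss and membrane damage, had 159.9, 155.2 and 226.4 CPM in the PD-L1 antibody wells, 72.07, 77.12 and 83.15 CPM in the isotype antibody wells and 72.24, 61.67 and 58.18 CPM in the untreated wells. The 3 PD-L1 antibody libraries lay far above the other 6, library 3 highest, and the isotype and untreated libraries overlapped. The log2 fold change was 1.19 against the isotype antibody (SE 0.138, limma adjusted p = 6.04e-05) and 1.47 against untreated cells (SE 0.138, limma adjusted p = 1.32e-05), folds of means of 2.33 and 2.82. A larger change in size against the isotype antibody was seen in 5.63% of all genes tested. Between isotype antibody and untreated the difference was 0.27 (SE 0.138, limma adjusted p = 0.424).

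Nlrc4, the sensor that NAIP proteins engage, had 34.46, 34.45 and 38.79 CPM in the PD-L1 antibody wells, 24.82, 26.39 and 24.02 CPM in the isotype antibody wells and 20.35, 20.14 and 23.41 CPM in the untreated wells. No 2 groups overlapped, and the isotype libraries lay between the others. It was 0.50 higher on the log2 scale than with the isotype antibody (SE 0.093, limma adjusted p = 0.00163) and 0.73 higher than untreated (SE 0.093, limma adjusted p = 0.000114). The gap between isotype antibody and untreated, 0.23, was not called (SE 0.093, limma adjusted p = 0.366). On the deposited reads over the whole gene span, introns included, the difference from untreated was 0.36 by edgeR's quasi-likelihood test (adjusted p = 0.0425).

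Naip2, the receptor for bacterial inner rod protein, had 228.6, 214.1 and 183.5 CPM in the PD-L1 antibody wells, 108.5, 106.9 and 115.0 CPM in the isotype antibody wells and 100.2, 81.26 and 81.03 CPM in the untreated wells. Again no 2 groups overlapped, with the PD-L1 antibody highest and untreated lowest. The log2 fold change was 0.91 against the isotype antibody (SE 0.105, limma adjusted p = 5.73e-05) and 1.25 against untreated cells (SE 0.105, limma adjusted p = 5.78e-06). Against untreated the isotype antibody stood 0.34 higher without passing the test (SE 0.105, limma adjusted p = 0.346). That last difference was called when untreated library 7, the highest of its group, was left out (0.44, limma adjusted p = 0.00839); 2297 genes were then called between these groups instead of 1.

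Naip5, the flagellin receptor next to it, had 73.57, 75.45 and 61.09 CPM in the PD-L1 antibody wells, 62.07, 62.78 and 69.55 CPM in the isotype antibody wells and 62.91, 52.25 and 58.38 CPM in the untreated wells. The groups overlapped in each comparison. The difference was 0.11 from the isotype antibody (SE 0.102, limma adjusted p = 0.453) and 0.27 from untreated (SE 0.102, limma adjusted p = 0.0529). This second value just missed the threshold, and it passed without PD-L1 antibody library 3 (0.36, limma adjusted p = 0.0173), without untreated library 7 (0.33, limma adjusted p = 0.0181) and on the deposited reads over the gene span (0.51 by edgeR, adjusted p = 0.0056). Of the 150-base stretches in its annotated transcripts, 8.25% also occur in Naip1, Naip3 or Naip6, against 0.537% of those of Naip2 in Naip1 or Naip3, so part of its reads could belong to a copy.

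Nlrp1b, which encodes the NLRP1B sensor, was the only 1 of the 9 to fall. It had 14.15, 15.22 and 15.52 CPM in the PD-L1 antibody wells, 20.45, 25.95 and 30.29 CPM in the isotype antibody wells and 25.14, 17.73 and 20.22 CPM in the untreated wells. The PD-L1 antibody libraries were close to each other and below all others, while each of the other groups was widely spread. The log2 fold change was -0.72 against the isotype antibody (SE 0.151, limma adjusted p = 0.00343), 0.585 times its mean. Against untreated cells it was -0.45 (SE 0.151, limma adjusted p = 0.0325), and this call was lost without any 1 of libraries 1, 2, 3, 7 or 9 (adjusted p 0.06 to 0.0974) and with no filter on low values (adjusted p = 0.0643). On the deposited reads, summed over the spans of its 2 listed transcripts, the same difference was -0.78 by edgeR (adjusted p = 0.0246). Those spans overlap, so reads in the shared part could count more than once. The files hold a second transcript of Nlrp1b that starts further downstream; its coverage relative to the first was 0.717 to 0.778 with the PD-L1 antibody, 0.753 to 0.911 with the isotype antibody and 0.812 to 0.931 untreated.

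Pycard, the adaptor, had 64.17, 65.29 and 69.12 CPM in the PD-L1 antibody wells, 55.85, 64.5 and 48.76 CPM in the isotype antibody wells and 53.98, 69.72 and 64.94 CPM in the untreated wells. All pairs of groups overlapped. Its difference was 0.24 from the isotype antibody (SE 0.116, limma adjusted p = 0.138) and 0.08 from untreated (SE 0.116, limma adjusted p = 0.608), and neither passed the test.

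Casp1, the caspase that matures interleukin-1β, had 137.5, 155.0 and 126.5 CPM in the PD-L1 antibody wells, 100.9, 84.6 and 98.53 CPM in the isotype antibody wells and 92.59, 91.31 and 106.7 CPM in the untreated wells. The lowest PD-L1 antibody library exceeded the highest of the other 6, which overlapped each other. The rise was 0.56 on the log2 scale over the isotype antibody (SE 0.102, limma adjusted p = 0.00152) and 0.52 over untreated (SE 0.102, limma adjusted p = 0.00192).

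Casp4, the gene of the lipopolysaccharide-binding caspase-11, had 76.23, 81.68 and 67.57 CPM in the PD-L1 antibody wells, 53.67, 41.16 and 48.69 CPM in the isotype antibody wells and 44.56, 51.39 and 60.87 CPM in the untreated wells. It followed its neighbour Casp1 in separating the PD-L1 antibody libraries from the other 6. The rise was 0.65 over the isotype antibody (SE 0.129, limma adjusted p = 0.00252) and 0.52 over untreated (SE 0.129, limma adjusted p = 0.00743).

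Gsdmd, the pore former that both caspases cut, had 198.2, 198.4 and 203.4 CPM in the PD-L1 antibody wells, 127.4, 121.4 and 130.2 CPM in the isotype antibody wells and 142.4, 112.1 and 133.1 CPM in the untreated wells. The PD-L1 antibody libraries were nearly equal and stood above all others. The rise was 0.66 over the isotype antibody (SE 0.089, limma adjusted p = 0.000186) and 0.63 over untreated (SE 0.089, limma adjusted p = 0.000218). Isotype antibody minus untreated was -0.03 for Gsdmd, -0.12 for Casp4, -0.03 for Casp1 and -0.16 for Pycard, with limma adjusted p of 0.921, 0.7, 0.908 and 0.575.

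**Figure D3:**
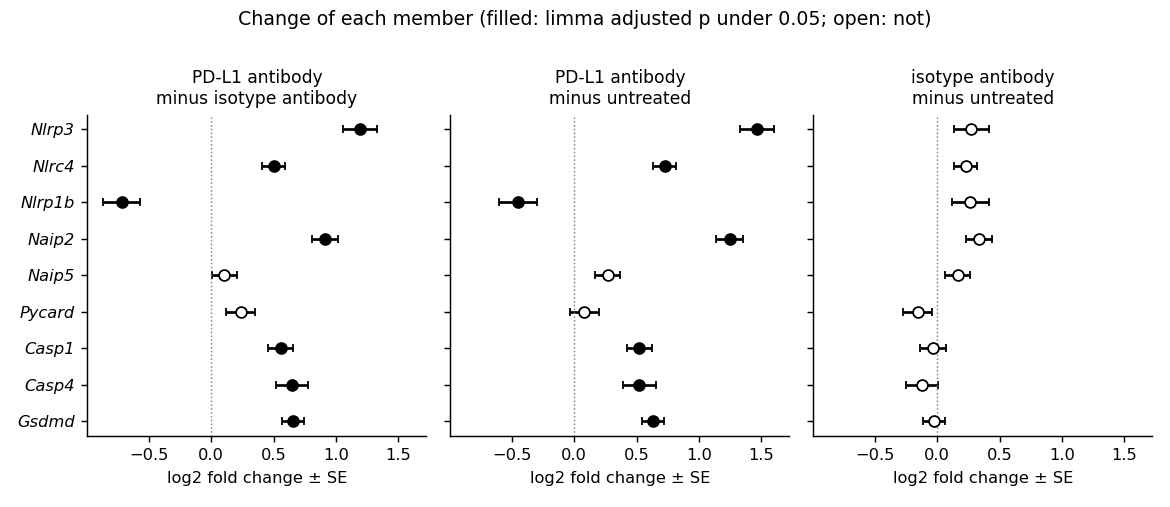
Log2 fold change of each gene with its SE in 3 panels, PD-L1 antibody minus isotype antibody, PD-L1 antibody minus untreated, and isotype antibody minus untreated; filled points passed limma at an adjusted p under 0.05. The first and second panels share the PD-L1 antibody libraries and show 6 filled points to the right and Nlrp1b to the left, and the last shows open points only, between -0.16 and 0.34.

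Between the PD-L1 antibody and untreated cells, 42.5% of all genes tested were called, 22% higher and 20.5% lower (3018 and 2812 genes; 1939 and 4089 with scaling by total counts alone, 2405 and 3427 with upper quartile scaling), and the median over the 9 genes was 0.52 against -0.01 over all genes. Libraries of the PD-L1 antibody did not overlap those of the isotype antibody in 7 of the 9 genes, where 52.1% of all genes tested did not overlap, nor those of untreated cells in the same 7, where 51.3% of all genes did not. Between isotype antibody and untreated, 0.00728% of genes were called (1 gene). Of the 9, the 2 that did not overlap in that comparison were Nlrc4 and Naip2, at 13.1% of all genes tested. At an unadjusted p under 0.05, 2 of the 9 passed there, where 12.7% of all genes did, and edgeR on the deposited reads called none of the 9. The 7 calls between the PD-L1 antibody and the isotype antibody kept their direction and their side of the threshold in all 24 alternative settings tried (limma, edgeR or DESeq2 adjusted p). Within lane 1 alone, that is without PD-L1 antibody library 2, the log2 fold changes were 1.29 for Nlrp3, 0.53 for Nlrc4, 0.89 for Naip2, -0.73 for Nlrp1b, 0.48 for Casp1, 0.58 for Casp4 and 0.66 for Gsdmd.

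The deposited tables also give reads over the whole span of a transcript, so the part of them that falls on exons could be compared. Naip5 had a lower exonic share with the PD-L1 antibody, 52.02% to 54.69%, against 58.19% to 61.43% with the isotype antibody and 59.31% to 66.84% untreated. Its reads outside exons were 62.1 ± 5.98 CPM in the PD-L1 antibody wells, 44.49 ± 5.26 CPM in the isotype antibody wells and 32.88 ± 8.98 CPM in the untreated wells, while its exonic level was not called. Nlrc4 had 55.78% to 60.12% with the PD-L1 antibody and 54.95% to 55.86% with the isotype antibody, both above the 44.44% to 46.38% of untreated cells. It was thus the 1 gene of the 9 in which both antibody groups stood clear of untreated cells in the same direction, by 13.1 and 10.12 percentage points. Among 10574 genes with at least 100 span reads in every library, 16.1% had shares that did not overlap between the PD-L1 antibody and the isotype antibody, 21.2% between the PD-L1 antibody and untreated, and 11.5% between isotype antibody and untreated; of the 9 genes it was 4, 4 and 2. Nlrp3 had 77.72% to 79.73% with the PD-L1 antibody against 73.13% to 77.67% with the isotype antibody, Casp4 55.26% to 57.49% against 51.17% to 55.06%, and Gsdmd 64.07% to 65.01% against 63.07% to 63.51%. Casp1 stayed between 58.07% and 60.65% in all 9 libraries, and Pycard between 78.11% and 83.09%. The shares have no test, and reads from other transcripts inside the span count as outside the exons. Other annotated genes overlap the spans of Nlrc4 (CT033749.1), Naip2 (Gm18413) and Pycard (Gm45205), and their part in the shares was not tested.

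**Figure D4:**
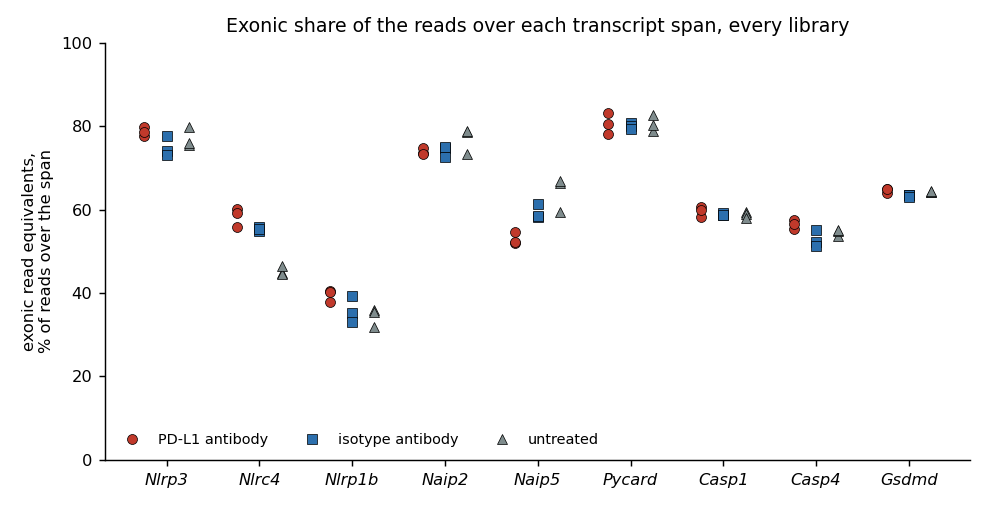
Exonic read equivalents as a percentage of the deposited reads over each transcript span, from 0 to 100%, for the 9 genes; each point is a library, with the PD-L1 antibody left, the isotype antibody in the middle and untreated right. Nlrc4 separates untreated libraries (44.44% to 46.38%) from both antibody groups, and Naip5 separates the PD-L1 antibody libraries (52.02% to 54.69%) from the rest.

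The genes around the 9 were grouped by role. Their counts against the isotype antibody stand beside 18.2% of all genes tested called higher and 18.2% called lower, so a list with about that share of calls does not stand out. Upstream of caspase-11, a list of lipopolysaccharide receptors, interferon signalling genes and the guanylate-binding and immunity-related GTPases that open bacterial vacuoles, 13 of 17 genes were higher with the PD-L1 antibody than with the isotype antibody and 1 was lower, with a median log2 fold change of 0.79. Gbp5 had 214.6, 268.8 and 238.0 CPM in the PD-L1 antibody wells against 54.64, 37.17 and 41.91 CPM in the isotype antibody wells (2.42, SE 0.161, limma adjusted p = 1.12e-06). Gbp3 and Gbp7, of the same GTPase family, rose by 1.71 and 1.60, both with non-overlapping groups. The lower gene was Ticam1, the adaptor of Toll-like receptors 3 and 4 (-0.33, limma adjusted p = 0.0111). Scaling by total counts alone moved the list to 12 higher and 4 lower.

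Among priming receptors and NF-κB genes, 8 of 18 were higher and none lower, with a median of 0.24. Tlr2, a receptor for bacterial lipoproteins, had 555.0, 434.3 and 627.8 CPM in the PD-L1 antibody wells against 162.4, 207.3 and 184.5 CPM in the isotype antibody wells (1.53, SE 0.132, limma adjusted p = 6.96e-06). Tlr3, the receptor for double-stranded RNA, rose by 1.24, Myd88, the shared adaptor of most Toll-like receptors, by 0.65 and Nfkb2 by 0.64. Rela, which encodes a main NF-κB subunit, was not called (0.05, limma adjusted p = 0.661). With scaling by total counts alone the list had 6 higher and 4 lower.

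Cytokines of the interleukin-1 family and their antagonists had the largest median, 1.28, with 6 of 7 tested genes higher and none lower; the list also holds Il33, which did not pass the filter on low values. Il1b had 524.5, 421.4 and 636.9 CPM in the PD-L1 antibody wells against 39.43, 26.88 and 22.1 CPM in the isotype antibody wells, higher by 4.14 on the log2 scale (SE 0.188, limma adjusted p = 5.85e-08). Il18, the other caspase-1 substrate, had 12.45, 14.41 and 12.81 CPM against 6.03, 5.38 and 6.66 CPM (1.02, SE 0.139, limma adjusted p = 0.000196). Il1a rose by 5.14, and Il1rn, the receptor antagonist that blocks both interleukin-1 forms, by 4.10. The substrates Il1b and Il18 and the antagonists Il1rn and Il18bp were thus higher together, and the rise of Il1b in log2 was larger than that of any of the 9 genes.

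The other sensors were mixed, with 6 of 14 tested genes higher and 2 lower and a median of 0.22; 16 were listed. Mefv, which encodes pyrin, the sensor of RhoA inactivation, had 117.1, 125.9 and 120.4 CPM in the PD-L1 antibody wells against 37.15, 36.27 and 29.62 CPM in the isotype antibody wells (1.80, SE 0.123, limma adjusted p = 1.32e-06). Nod1 and Nod2, sensors of peptidoglycan fragments that signal to NF-κB, rose by 1.74 and 1.19. Nlrp10, a NLR protein without a leucine-rich repeat, had 2.45, 3.26 and 2.68 CPM in the PD-L1 antibody wells against 10.63, 12.04 and 14.08 CPM in the isotype antibody wells (-1.80, SE 0.138, limma adjusted p = 2.98e-06). Aim2, the sensor of cytosolic DNA, was not called (-0.02, limma adjusted p = 0.903). Over the alternative settings the higher calls in this list ranged from 3 to 6 and the lower calls from 1 to 3.

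Among genes for NLRP3 activation and licensing, 2 of 13 tested genes were higher and 5 lower, with a median of -0.13. Against untreated cells the list median was -0.03, near the -0.01 over all genes tested. Zdhhc5, a palmitoyltransferase, rose by 0.55 (limma adjusted p = 0.00157) and P2rx4, an ATP-gated channel, by 0.56 (limma adjusted p = 0.0211), a call lost with scaling by total counts alone, with no filter on low values, with edgeR on the deposited reads, at a threshold of 0.01 and without any 1 of libraries 1, 2, 5 or 6. Panx1, a channel that releases ATP, fell by 0.70 on the log2 scale (limma adjusted p = 0.00451), Hdac6, which carries the complex along microtubules, fell by 0.49 (limma adjusted p = 0.0094), and Nek7, the kinase that NLRP3 binds as it assembles, fell by 0.36 (limma adjusted p = 0.0245). The Nek7 call was lost with no filter on low values (adjusted p = 0.0547) and without any 1 of libraries 1, 3, 4, 5 or 6 (adjusted p 0.0549 to 0.0975). Txnip and Kcnk6 were also called lower (-0.42 and -0.28, limma adjusted p = 0.0281 and 0.0343). Together with Nek7, they lost their calls at a threshold of 0.01, without library 1 and without library 5. Scaling by total counts alone gave 1 higher and 7 lower in the list. P2rx7, the ATP receptor upstream of potassium loss, was not called (-0.23, limma adjusted p = 0.207). It was called lower with scaling by total counts alone, with only the 2 groups compared and without library 7 (limma adjusted p 0.016 to 0.0284).

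A list of inflammasome regulators, named for restraint, had 4 of 10 tested genes higher and 1 lower, with a median of 0.13. It holds genes that are not plain inhibitors, Ptpn22 and Pstpip1 among them, so its count does not describe brakes alone. Tnfaip3, which encodes the NF-κB inhibitor A20, had 132.1, 146.9 and 154.7 CPM in the PD-L1 antibody wells against 53.17, 44.32 and 51.44 CPM in the isotype antibody wells (1.52, SE 0.156, limma adjusted p = 2.47e-05). Cflar, the inhibitor of caspase-8, rose by 1.49 and Pstpip1, a binding partner of pyrin, by 0.67. Ptpn22, a phosphatase that acts on NLRP3, had 22.72, 22.48 and 19.68 CPM against 48.07, 50.55 and 55.18 CPM (-1.21, SE 0.086, limma adjusted p = 1.87e-06). Dpp8 and Dpp9, the proteases that hold NLRP1B inactive, were not called (-0.05 and 0.13, limma adjusted p = 0.631 and 0.346). Scaling by total counts alone gave 3 higher and 3 lower.

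Downstream of the pore, 9 of the 11 listed gasdermin and membrane rupture genes did not pass the filter on low values. Gsdme, the gasdermin cut by caspase-3, had 13.29, 10.82 and 12.12 CPM in the PD-L1 antibody wells against 14.09, 12.78 and 14.62 CPM in the isotype antibody wells and was not called (-0.18, limma adjusted p = 0.216). Ninj1, whose protein ruptures the membrane after pores form, was 0.50 higher (limma adjusted p = 0.0264), a call lost with scaling by total counts alone, with no filter on low values, on the deposited reads, at a threshold of 0.01 and without any 1 of libraries 1, 2, 3, 4 or 6. Of the ESCRT genes, which repair membrane by shedding pores, 3 of 12 tested were higher and none lower (3 and 1 with scaling by total counts alone). In either direction that was no larger a share than the 36.4% of all genes called. The higher calls alone stand beside 18.2% of all genes tested. Ist1 rose by 0.67, Chmp4b by 0.41 and Chmp2a by 0.37, and Vps4a was not called (0.15, limma adjusted p = 0.167). In the list of apoptotic and necroptotic caspases and kinases 6 of 13 were higher and 1 lower, with a median of 0.36. Mlkl, the pore former of necroptosis, rose by 1.46, Zbp1, a nucleic acid sensor upstream of it, by 1.27 and Casp8 by 0.70. Scaling by total counts alone gave 5 higher and 5 lower in this list.

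**Figure D5:**
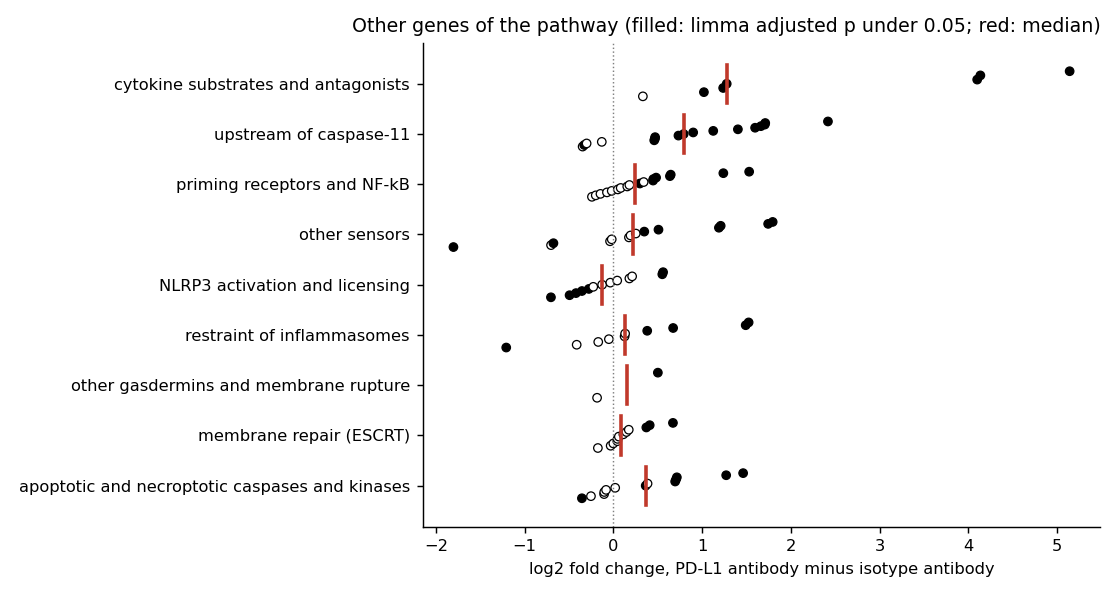
Log2 fold change, PD-L1 antibody minus isotype antibody, of each tested gene in 9 lists around the pathway; filled points passed limma at an adjusted p under 0.05 and red bars are list medians. Medians run from -0.13 for NLRP3 activation and licensing to 1.28 for the cytokines, beside -0.01 over all genes tested.

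Against untreated cells the lists gave 12 higher and 3 lower of 17 upstream of caspase-11, 9 and 2 of 18 for priming, 7 and 0 of 7 for cytokines, 8 and 2 of 14 for other sensors, 1 and 3 of 13 for NLRP3 activation, 7 and 1 of 10 for restraint, 0 and 0 of 2 for other gasdermins, 2 and 0 of 12 for ESCRT, and 6 and 1 of 13 for apoptotic and necroptotic genes. These use the PD-L1 antibody libraries again and stand beside 22% of all genes called higher and 20.5% called lower. With scaling by total counts alone the ESCRT count turned to 1 higher and 3 lower (2 and 2 with upper quartile scaling), NLRP3 activation had 1 and 6, and restraint 4 and 1. Between isotype antibody and untreated no gene of any list was called by limma. Without untreated library 7, 25 of the 106 list genes were called, 13 higher and 12 lower, and DESeq2 on the deposited reads called 1, Dpp8 (adjusted p = 0.00304).

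Genes whose level followed a member most closely over the 9 libraries were found by the root mean square difference of log2(CPM + 1), each gene centred on its own mean, among 9501 genes; this is a description, and all genes share the same libraries. Nearest to Nlrp3 was Tnip1, a partner of A20, at 0.093, then Abcc4 at 0.104 and Fosl2 at 0.109, where the median gene lay at 0.661. Nearest to Casp1 was Mmadhc at 0.027, then Nampt at 0.057 and Ghitm at 0.062, with the median gene at 0.32. Nearest to Casp4 was also Nampt, at 0.068, then Psma2 at 0.079 and Tpst1 at 0.08, with the median at 0.357. Nearest to Gsdmd was Slc3a2 at 0.057, then Dhx58 at 0.059 and Eif1ax at 0.066, with the median at 0.35. Nampt was thus near to both neighbouring caspase genes.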

How the data were processed

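RNA of 9 libraries, 3 per group, was sequenced as paired reads of 150 bases; per the submitters' processing notes STAR and Partek were used, and the genome build and strand setting are not given in the sources used here. Per the file headers, the deposited tables hold, per transcript, read counts over its genomic span, average coverage (a signal per exon base), the percent of exon bases at given coverage, and a score of Partek's own. Their positions matched GRCm38 for 99.1% of 21923 symbols found in its annotation. Because the counts include introns, exonic read equivalents were computed from coverage, keeping the transcript with the highest mean per symbol (35131 transcripts, 22376 symbols). After edgeR 4.0.16 filtering (13728 genes) and TMM scaling, log2(CPM + 1) was tested two-sided with limma 3.58.1 (trended variance, all 9 libraries, Benjamini-Hochberg) in R 4.3.3, and the scripts were tested on simulated data. Alternatives used edgeR and DESeq2 1.42.0 on the deposited counts, summed over the transcripts of each symbol. Where transcripts of a symbol overlap, as in Nlrp1b and Naip2, the same reads could then count more than once. Members and lists were chosen with earlier results of these data known. Each list names up to 4 tested genes of lowest p between the PD-L1 antibody and the isotype antibody, besides Il1b and Il18. Others (marker genes with single values, Ticam1, Rela, Aim2, Nek7, Txnip, Kcnk6, P2rx7, Dpp8, Dpp9, Il18bp and Il33) were chosen after their values were seen. Some genes this rule names are not reported here.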

Additional observations from a re-analysis of the deposited data

How the results depend on the processing

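No paired analysis was possible because the groups share no replicate number. In 24 alternatives, differences of the 9 genes changed sign only where they were not called. Scaling by total counts alone gave -0.069 for Naip5 with the PD-L1 antibody against the isotype antibody, -0.068 for Pycard with the PD-L1 antibody against untreated and 0.001 for Gsdmd with the isotype antibody against untreated. The deposited reads gave, for isotype antibody against untreated, -0.067 (DESeq2) and -0.037 (edgeR) for Nlrc4 and 0.012 (edgeR) for Gsdmd. Leaving out 1 library gave -0.08 to 0.046 for Casp1 and -0.123 to 0.048 for Gsdmd between these groups, and -0.027 to 0.155 for Pycard with the PD-L1 antibody against untreated. The cause was not tested. Genes called between isotype antibody and untreated numbered 1, and 201 with DESeq2 and 2 with edgeR on the deposited reads, 2 with total counts, 0 with edgeR or limma-voom on exonic read equivalents, with only these groups or at a threshold of 0.01, and 0 to 2297 leaving out 1 library. At 0.01, where fewer calls follow by construction, 3223 genes were called for the PD-L1 antibody against the isotype antibody and 3824 against untreated. The 1 of the 9 genes called lower against untreated, Nlrp1b, became 0 with no filter on low values and at 0.01, and 0 to 1 leaving out 1 library; those called higher with the isotype antibody against untreated were 0 to 1. What depth limits was not tested.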
